A study of Homo sapiens with 6 samples.

Results

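The 78 genes whose symbols begin with MRPS or MRPL, the proteins of the mitochondrial ribosome, were followed in a human leukaemia line after knockdown of FBL. They were chosen by symbol alone, as every row of the deposited gene table of the form MRPS or MRPL plus a number and at most 1 further letter, which leaves out the pseudogenes. The rule took 78 of 31966 rows, each symbol held 1 row, and all 78 passed the filter on low counts, with a lowest total of 295 reads over the 6 libraries. By known structure, 26 of them are proteins of the small subunit and 51 of the large subunit. MRPS18A and MRPS30 carry an S in the symbol but sit in the large subunit. MRPS36 is not a ribosomal protein in spite of its name, and is known as a component of the 2-oxoglutarate dehydrogenase complex.

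The cells were Kasumi-1, an established acute myeloid leukaemia line with the RUNX1-RUNX1T1 fusion, carrying a short hairpin RNA that doxycycline switches on. Control cells expressed a hairpin named shLUC and knockdown cells a hairpin named shFBL, and the design text gives 100 ng/ml doxycycline for 72 h. Each group held 3 libraries of total RNA. The labels do not say whether the 3 came from separate cultures, and they name 1 hairpin a group, so p-values measure the spread between these libraries, which may be technical, and the effect of FBL cannot be told apart from other effects of that hairpin.

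Mitochondrial ribosomes translate the few messenger RNAs of the mitochondrial genome, all of which encode subunits of the respiratory chain and the ATP synthase. Their ribosomal RNAs are made in the organelle, while all of their proteins are encoded in the nucleus, translated in the cytosol and imported. Some of these proteins have a counterpart in bacterial ribosomes and others are found only in mitochondria. Fibrillarin, the product of FBL, is the 2'-O-methyltransferase of the nucleolar box C/D particles that modify cytosolic ribosomal RNA, and it is not known as a part of the mitochondrial ribosome.

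The libraries held 85556322 to 103148412 counted reads, and the members took 0.510% to 0.534% of them in controls and 0.457% to 0.484% in knockdown libraries. Levels are given below as CPM, counts scaled to the size of the library, or as RPKM, the same per kilobase of exon, where genes are compared with each other. FBL itself (ENSG00000105202) stood at 580.4, 549.7 and 544 CPM in control replicates 1, 2 and 3 and at 54.0, 32.4 and 44.9 CPM in knockdown replicates 1, 2 and 3, a log2 fold change of -3.67 ± 0.16 (SE). All 8 myeloid markers examined were detected, from CD34 (2.48 to 4.58 CPM) to MPO (4894 to 8118 CPM). Their sum, most of it MPO, was 7119 to 8863 CPM in controls and 5411 to 6497 CPM in knockdown libraries. The summed markers of every other cell type stayed at or under 1.48 CPM. Some of these had no row, and only 1 of 3 B-lymphoid and 1 of 3 megakaryocytic markers could be read. In bulk RNA, fewer cells of a type and less RNA per cell cannot be told apart. Control replicate 2 and knockdown replicate 1 held relatively more reads of GC-rich transcripts than the rest of their group. Over the tenth of all genes with the highest GC content, the median log2 deviation from the mean of the 6 libraries was 0.20 in control replicate 2 and -0.21 in control replicate 1.

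Promoter sequences are shown first because genes of the mitochondrial ribosome are known to be transcribed from promoters bound by ETS-family factors, NRF1 and YY1. RefSeq promoters on GRCh38.p14 were found for 69 of the 78 members, and the 250 bases before each start were searched on both strands for CCGGAAG (ETS), GCGCA followed by any base and GCGC (NRF1), and AAGATGGCG (YY1). Of the 23 matched members that held the ETS letters, 5 were lower after knockdown by the test described below, and these are their windows, with the motif in capitals (CTTCCGG is the same motif on the other strand):
MRPL3 (chr3:131502985-131503014, minus strand): tgtaaaacgcaCCGGAAGtgggtccggcgg
MRPL27 (chr17:50373218-50373247, minus strand): ccacgcagggcCCGGAAGtagatctcctga
MRPL30 (chr2:99181028-99181057, plus strand): ggtctgctgcgCTTCCGGgaagtggtcatg
MRPL58 (chr17:75012640-75012669, plus strand): gaccgcggggaggaagcgcccgCCGGAAGc
MRPS18A (chr6:43687804-43687833, minus strand): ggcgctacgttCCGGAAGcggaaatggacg
Of the 8 members with the NRF1 letters, 4 were lower, and their windows were these, each holding the motif on the other strand (that of MRPL17 reads the same on both strands):
MRPS9 (chr2:105038019-105038048, plus strand): cgcgccattaGCGCCTGCGCcgtctctagg
MRPL30 (chr2:99181058-99181087, plus strand): tgatacccagGCGCCTGCGCtctctttcta
MRPL17 (chr11:6683402-6683431, minus strand): aggctctgatGCGCATGCGCaaacacgttc
MRPL36 (chr5:1799928-1799957, minus strand): tcgcactccaGCGCCTGCGCactcgctgct
The YY1 letters stood in 3 promoters, those of MRPL32, the only member that was higher by the same test, of MRPL36, which was lower, and of MRPL52, which was not called (CGCCATCTT is the motif on the other strand):
MRPL32 (chr7:42932143-42932172, plus strand): acccgcgctcCGCCATCTTtacccgaagag
MRPL36 (chr5:1799854-1799883, minus strand): ccccccccgcCGCCATCTTccttcctggca
MRPL52 (chr14:22829779-22829808, plus strand): acgatgacccAAGATGGCGgagccgtgatt

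The ETS letters stood in 23 of the 69 promoters (33.3%), against 8.52% of 35116 promoters of all genes and 18.2% of 5228 promoters of tested protein-coding genes at 10 CPM or more. NRF1 letters stood in 8 (11.6%, against 5.07% and 12.5%) and YY1 letters in 3 (4.35%, against 0.652% and 1.34%). The promoters of 37 members held none of the 3 motifs in this window, among them that of MRPS27. Of the 23 members with the ETS letters 5 were lower, and of the 46 without them 17 were lower, with median log2 fold changes of -0.07 and -0.24. For NRF1 the counts were 4 of 8 with the letters and 18 of 61 without (medians -0.20 and -0.18). For YY1 they were 1 of 3 and 21 of 66 (medians 0.12 and -0.19). Among all tested genes 17% were lower, and 27.7% of those at 10 CPM or more. A match describes these letters only.

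Across the whole family, small falls outnumbered rises. By edgeR's quasi-likelihood test with Benjamini-Hochberg adjustment over all 18486 genes tested, at a threshold of 0.05, 26 of the 78 members were lower after FBL knockdown, 1 was higher and 51 were not called. The background was high, because 6061 genes were called in all: 32.8% of genes in either direction, 17% lower and 15.8% higher. The share of members called (34.6%) was therefore close to that of all genes, while the directions were unequal, with 33.3% of members lower and 1.28% higher. Of the members, 59 had a negative and 19 a positive log2 fold change. Their median was -0.19, against -0.01 over all tested genes and -0.06 over tested genes at 10 CPM or more, and single members ran from -1.25 to 0.32. A call of a lower gene was also commoner among abundant genes, and at 10 to 100 CPM 27.7% of all genes and 18 of 50 members (36%) were lower, while 17% of all genes and 1 member were higher. At 100 CPM or more, 27.8% of all genes and 4 of 17 members (23.5%) were lower, and under 10 CPM 10.1% of all genes and 4 of 11 members. Among protein-coding genes at 10 CPM or more, 29% of genes and 22 of 67 members were lower, and 15.7% of genes and 1 member higher.

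**Figure D1:**
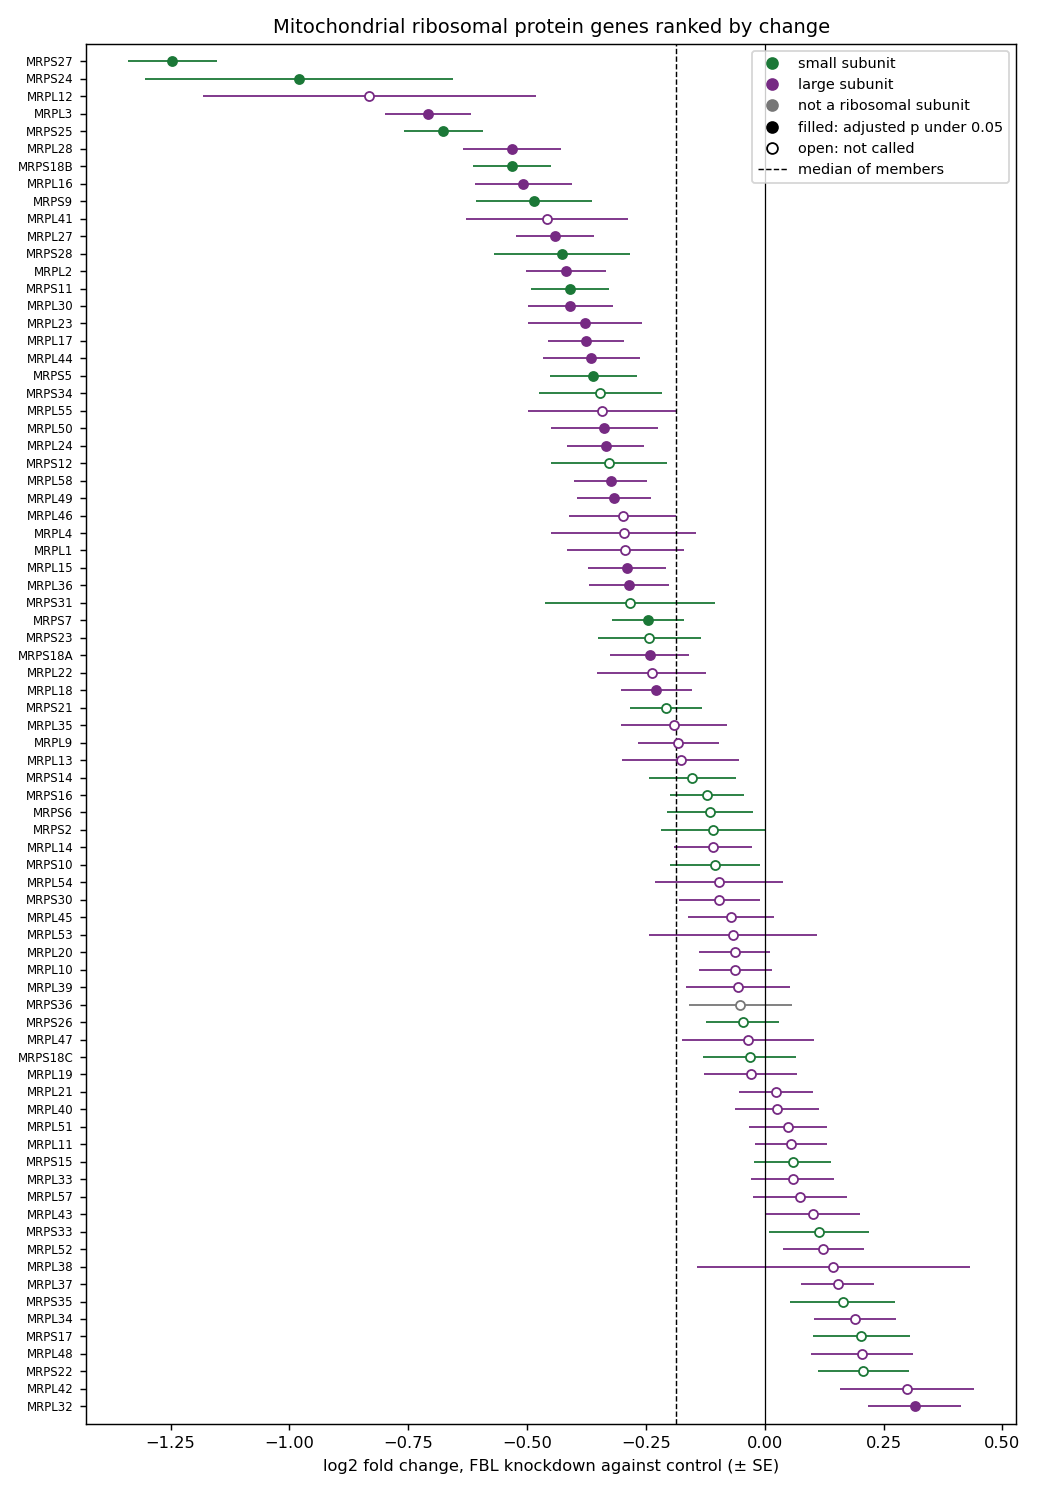
Log2 fold change of FBL knockdown against control (x axis, ± SE from edgeR) for each of the 78 members, ranked, coloured by subunit and filled where the adjusted p was under 0.05. Most points lie left of 0 and the dashed line marks the members' median of -0.19; MRPS27 is farthest left at -1.25 and MRPL32 farthest right at 0.32.

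Among the 26 members that fell, the falls were mostly small. Their median was -0.39 on the log2 scale, only 4 fell at least 1.5-fold (MRPS27, MRPS24, MRPL3 and MRPS25), and only MRPS27 at least 2-fold, at 2.37-fold. The groups did not overlap for 28 members that were lower in knockdown libraries (35.9%, against 23.1% of all tested genes) and for 6 that were higher (7.69%, against 22.1%), so that 43.6% of members and 45.2% of all tested genes had separate groups. Upper-quartile scaling moved the balance of calls over all genes from 3141 lower and 2920 higher to 2528 lower and 3597 higher, and among members it gave 17 lower and 4 higher. Leaving out knockdown replicate 3 left 11 members lower, and leaving out control replicate 3 or knockdown replicate 2 left 16 and 17. Of all genes, 9.78%, 12.2% and 11% were lower in these fits. Without control replicate 1, control replicate 2 or knockdown replicate 1, 28, 30 and 23 members were lower. The shares of all genes there were 16.3%, 19.4% and 14.7%. In all, 11 members were lower under all 17 alternative settings: MRPS27, MRPL3, MRPS25, MRPL28, MRPS18B, MRPL16, MRPL27, MRPL2, MRPS11, MRPL30 and MRPL17.

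In the small subunit, 9 of 26 members fell and none rose, with a median log2 fold change of -0.23. The share that fell was 34.6%, against 17% of all tested genes and 27.7% of those at 10 CPM or more. The 3 largest falls of this subunit among members at 10 CPM or more were in proteins listed here as specific to mitochondria. That list holds MRPS18B, although its paralogue MRPS18C was listed with a bacterial counterpart. MRPS27 (ENSG00000113048, GRCh38 chr5:72219409-72320646, minus strand), a pentatricopeptide repeat protein, measured 74.5, 62.1 and 64.0 CPM in controls and 27.8, 27.5 and 29.3 CPM in knockdown libraries (log2 fold change -1.25 ± 0.09, adjusted p = 1.85e-05 by edgeR). The lowest control lay more than 2-fold above the highest knockdown library, and knockdown libraries lay within 2 CPM of each other. MRPS25 (chr3:15042460-15065335, minus strand) was found at 42.7, 44.0 and 40.3 CPM in controls and at 27.8, 26.2 and 25.4 CPM in knockdown libraries (-0.68 ± 0.08, adjusted p = 0.000208 by edgeR). MRPS18B (chr6:30617709-30626395, plus strand), a paralogue of MRPS18A and MRPS18C, stood at 65.4, 58.6 and 62.4 CPM in controls and at 45.1, 42.1 and 41.7 CPM in knockdown libraries (-0.53 ± 0.08, adjusted p = 0.000794 by edgeR). In both genes every knockdown library lay below every control. MRPS25 shares 22.2% of its exon bases with NR2C2 on the opposite strand, and the sources used here do not say whether reads were assigned by strand.

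Of the 10 small-subunit proteins specific to mitochondria, these 3 fell (30%) and the other 7 were not called, with a group median of -0.26. That share was near the 27.7% of all tested genes at 10 CPM or more that were lower (17% at any level). MRPS22 was among the uncalled, at 16.7, 15.9 and 14.9 CPM in controls and 17.1, 19.98 and 17.7 CPM in knockdown libraries (0.21 ± 0.10, adjusted p = 0.122 by edgeR). Its knockdown libraries all lay above its controls. Of the 16 small-subunit proteins with a bacterial counterpart, 6 fell (37.5%, median -0.18): MRPS24, MRPS9, MRPS28, MRPS11, MRPS5 and MRPS7. Among these MRPS9 changed by -0.48 ± 0.12, MRPS28 by -0.43 ± 0.14 and MRPS11 by -0.41 ± 0.08. MRPS12, the homologue of the decoding-site protein S12, had a log2 fold change of -0.33 ± 0.12 with overlapping groups and was not called (adjusted p = 0.0616 by edgeR; named after its values were seen).

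In the large subunit, falls were called in 17 of 51 members and a rise in 1 (median -0.18). Of the 30 proteins with a bacterial counterpart 12 fell (40%) and 1 rose (median -0.26). Of the 21 specific to mitochondria 5 fell (23.8%, median -0.07). For comparison, 17% of all tested genes were lower, and 27.7% of those at 10 CPM or more. This difference between the origins was not tested. It also depends on the listing, as MRPS18A, 1 of the 5, is a paralogue of MRPS18C, which was listed with a bacterial counterpart. MRPL3 (ENSG00000114686, chr3:131462212-131502983, minus strand), which binds ribosomal RNA near the peptidyl transferase centre, stood at 103, 87.4 and 95.9 CPM in controls and at 53.9, 61.3 and 59.7 CPM in knockdown libraries. It changed by -0.71 ± 0.09 (adjusted p = 0.000261 by edgeR), with every knockdown library below every control. MRPL28 stood at 135, 164 and 152 CPM in controls and at 110.2, 91.5 and 110.0 CPM in knockdown libraries (-0.53 ± 0.10). MRPL16 stood at 22.2, 18.4 and 17.9 CPM in controls and at 13.8, 13.4 and 13.8 CPM in knockdown libraries (-0.51 ± 0.10). In each of these genes the groups were separate, and in MRPL16 knockdown libraries were closer together than controls.

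MRPL27, whose bacterial homologue reaches into the peptidyl transferase centre, stood at 62.5, 61.2 and 64.8 CPM in controls and at 49.5, 43.7 and 45.6 CPM in knockdown libraries (-0.44 ± 0.08). MRPL2, another core protein of that region, stood at 56.8, 63.8 and 60.8 CPM in controls and at 47.9, 43.3 and 44.5 CPM in knockdown libraries (-0.42 ± 0.08). Neither gene had overlapping groups, and 14.7% of the exon bases of MRPL2 lie opposite KLC4. Among the large-subunit proteins specific to mitochondria, MRPL44, which has an RNase III fold, changed by -0.36 ± 0.10, MRPL50 by -0.34 ± 0.11, MRPL58, a relative of peptide release factors also called ICT1, by -0.32 ± 0.08, and MRPL49 by -0.32 ± 0.08. MRPS18A was the fifth that fell, and 47.0% of its exon bases lie opposite RSPH9. The calls of MRPL50 and MRPS18A were each lost in 11 of the 17 alternative settings.

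**Figure D2:**
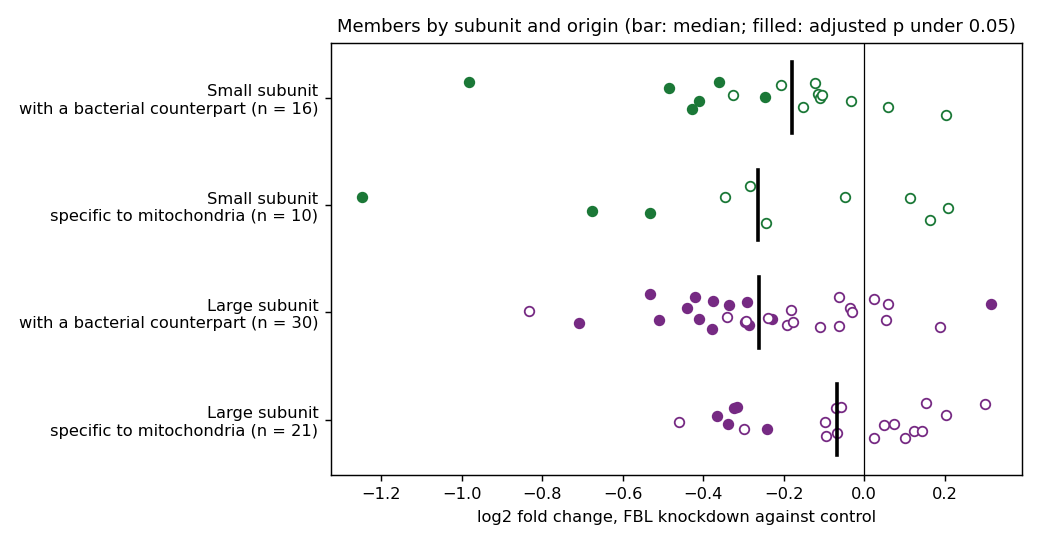
Log2 fold change (x axis) of each member in 4 groups by subunit and origin, with 1 point a gene, a bar at the group median and filled points where the adjusted p was under 0.05. The medians are -0.18 and -0.26 in the small subunit and -0.26 and -0.07 in the large subunit, in the order drawn; points are spread vertically only to separate them.

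MRPL32 (ENSG00000106591, chr7:42932200-42948958, plus strand) was the single member that rose. Its product is processed on import by the m-AAA protease, a step known from yeast to control ribosome assembly. It stood at 17.0, 14.1 and 16.2 CPM in controls and at 18.9, 20.6 and 19.2 CPM in knockdown libraries (0.32 ± 0.10, adjusted p = 0.0289 by edgeR). Every knockdown library lay above every control. This call was lost in 7 of the 17 alternative settings. MRPL42 had nearly the same log2 fold change (0.30 ± 0.14, adjusted p = 0.128 by edgeR) but overlapping groups, at 36.8, 25.1 and 34.5 CPM in controls and 34.1, 42.0 and 42.7 CPM in knockdown libraries. MRPL48 stood at 19.7, 16.04 and 18.3 CPM in controls and at 18.5, 21.7 and 22.0 CPM in knockdown libraries, again with overlap (0.20 ± 0.11, adjusted p = 0.169 by edgeR).

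**Figure D3:**
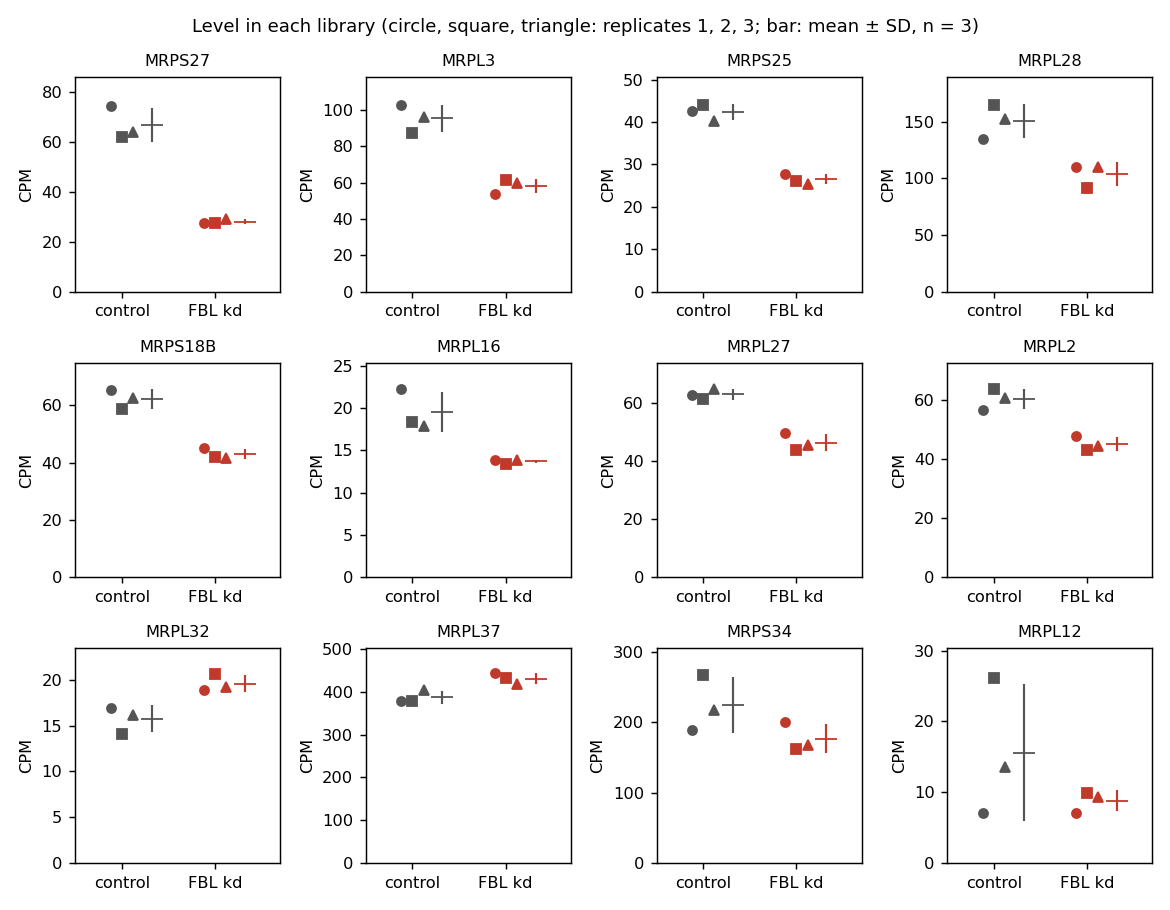
Level in CPM (y axis, from 0) of 12 members in each control library (grey) and FBL knockdown library (red), with replicates 1, 2 and 3 as circle, square and triangle and the mean ± SD beside them (n = 3). MRPS27 shows the widest separation, 62.1 to 74.5 against 27.5 to 29.3 CPM, and MRPL12 shows overlapping groups with control replicate 2 at 26.1 CPM.

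No protein of the stalk and its base, the region of the large subunit that recruits translation factors, was called (0 of 5, median -0.07). As 17% of all tested genes were lower, and 27.7% of those at 10 CPM or more, 0 of 5 is a count only. Of the 5, MRPL12 and MRPL53 share 68.2% and 45.2% of their exon bases with a gene on the same strand. MRPL12, the stalk protein that also binds the mitochondrial RNA polymerase, had the third largest fitted fall (-0.83 ± 0.35) yet was not called (adjusted p = 0.0924 by edgeR). Its controls spread over 7.12, 26.1 and 13.6 CPM, and its knockdown libraries, at 7.10, 9.93 and 9.26 CPM, overlapped the lowest of them. MRPL12 is GC-rich (64.6%), and control replicate 2, its highest library, was the control with most reads of GC-rich transcripts; the part of this in the result was not tested. MRPS36 was not called either, at 12.5, 12.7 and 11.9 CPM in controls and 10.2, 12.7 and 12.9 CPM in knockdown libraries (-0.05 ± 0.11).

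The 3 most abundant members per length were not among the called. MRPS34 had the highest mean, 183 RPKM, and stood at 188, 267 and 217 CPM in controls and at 199.9, 162 and 167 CPM in knockdown libraries (-0.35 ± 0.13, adjusted p = 0.0614 by edgeR). MRPL37, at 161 RPKM, stood at 379, 379 and 405 CPM in controls and at 444, 432 and 417 CPM in knockdown libraries, all above the controls (0.15 ± 0.08, adjusted p = 0.151 by edgeR). MRPL54, at 125 RPKM, stood at 107, 148 and 133 CPM in controls and at 143, 109 and 111 CPM in knockdown libraries (-0.10 ± 0.13, adjusted p = 0.621 by edgeR). MRPS34 and MRPL54 overlapped between groups, and in both the highest control was replicate 2 and the highest knockdown library replicate 1.

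That pattern followed GC content over the family. GC content was taken from the longest annotated transcript of each gene. Among the 26 members with the highest GC content (52.2% to 72.0%), control replicate 2 was the highest control in 18 and knockdown replicate 1 the highest knockdown library in 14. Among the 26 with the lowest (33.5% to 43.8%), control replicate 2 was the lowest control in 20 and knockdown replicate 1 the lowest knockdown library in 22. Lower calls numbered 6 in the GC-rich members, 15 in the 26 between and 5 in the GC-poor members. Median log2 fold changes were -0.15, -0.27 and -0.11, and median SEs 0.09, 0.08 and 0.11, smallest in the 26 between. In the same fit 17% of all tested genes were lower, and 27.7% of those at 10 CPM or more. With a correction for GC content in each library, chosen after seeing the data, 39 members were lower and 5 higher, and all 26 lower calls of the uncorrected fit were among the 39. Calls over all genes rose as well under this correction, to 4199 lower (22.7%) and 4086 higher.

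Close to the threshold lay 4 members by the rule for naming. MRPS18A (88.2, 87.3 and 95.7 CPM in controls, 79.9, 71.4 and 78.0 in knockdown libraries) was called at an adjusted p of 0.0451 and MRPL50 (13.5, 11.4 and 13.7 against 9.01, 10.9 and 10.6 CPM) at 0.0408, by edgeR. MRPS21 (57.4, 56.5 and 56.9 against 48.2, 49.5 and 50.2 CPM) missed it at 0.0552, and MRPL41 (27.3, 43.9 and 34.0 against 30.6, 21.3 and 24.7 CPM) at 0.0610. MRPS21 had separate groups and the smaller fold change (-0.21 ± 0.08), while MRPL41 had overlapping groups and the larger (-0.46 ± 0.17).

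The lowest levels belonged to genes that share exon bases with another gene. By the GENCODE release 29 annotation on GRCh38, 41 members overlap an exon of some other gene, and 7 share at least 20% of their exon bases with a gene on the same strand: MRPL12, MRPL53, MRPL38, MRPS28, MRPS17, MRPS24 and MRPL33. The median level of these 7 was 1.39 RPKM, against 20.8 RPKM for the other 71. MRPL38 (0.143 RPKM) stood at 0.407, 0.747 and 0.336 CPM in controls and at 0.510, 0.607 and 0.530 CPM in knockdown libraries. MRPL53 (0.628 RPKM) stood at 0.869, 0.921 and 0.801 CPM in controls and at 0.857, 0.694 and 0.925 CPM in knockdown libraries. Neither gene was called, and their groups overlapped. MRPS24 (0.277 RPKM) was called lower (-0.98 ± 0.32, adjusted p = 0.0387 by edgeR), but its controls, at 0.525, 1.40 and 0.949 CPM, overlapped its knockdown libraries, at 0.445, 0.433 and 0.587 CPM, and the call was lost in 10 of 16 alternative settings. Levels of these genes are uncertain, because the sources used here do not say how reads that fall in more than 1 gene were treated. The 37 members with no exon overlap held 11 lower calls and no higher call, with a median of -0.21.

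**Figure D4:**
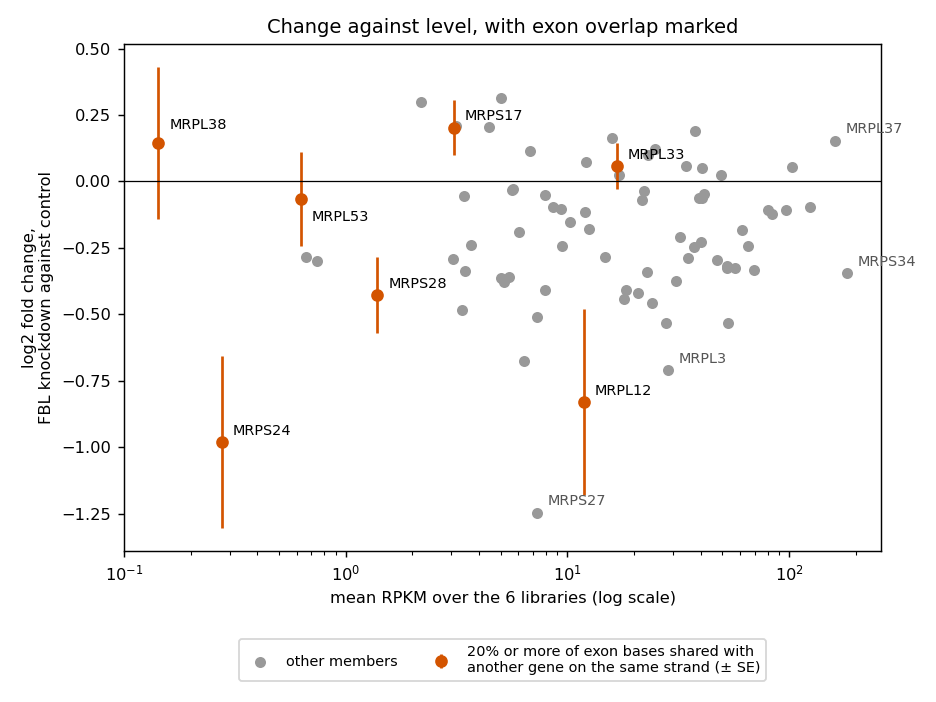
Log2 fold change (y axis) against mean RPKM over the 6 libraries (x axis, log scale) for the 78 members, with the 7 that share at least 20% of their exon bases with a gene on the same strand in orange (± SE). The lowest 3 members, MRPL38, MRPS24 and MRPL53, are all orange, and the bars of MRPS24 and MRPL12 are the longest among those below 0.

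Reads can also be shared with pseudogenes. The summed level of annotated pseudogenes reached 27.6% of the parent for MRPS31 and 12.6% for MRPL36, 6.92% for MRPS36, 5.76% for MRPL45, and under 3% for the rest. For MRPL3 it was 1.07%.

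Many members start close to a gene on the other strand. A start within 500 bases was found for 23 members, 22 of them with a tested partner, and 8 of those members fell. In 3 of the 8 pairs the partner fell too: TCP1 beside MRPL18 (-0.26 ± 0.08), the endonuclease gene EME1 beside MRPL27 (-0.49 ± 0.08) and the complex I gene NDUFS6 beside MRPL36 (-0.22 ± 0.08). Of the 13 members with a tested partner that were not called, 3 had a partner that was lower and 1 a partner that was higher, and 17% of all tested genes were lower, so the 3 of 8 is a count only. In the other 5 of the 8 pairs the partner was not called, as with PTCD2 beside MRPS27 (0.06 ± 0.17, adjusted p = 0.827 by edgeR) and MITD1 beside MRPL30 (0.11 ± 0.16, adjusted p = 0.641 by edgeR). MRPL46 and MRPS11 are head-to-head partners of each other, and changed by -0.30 ± 0.11 (not called) and -0.41 ± 0.08 (called). MRPL43 was not called (0.10 ± 0.10) beside TWNK, the mitochondrial DNA helicase, which fell (-0.61 ± 0.10). Pairs named here were chosen after their values were seen.

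Summed over genes, members amounted to 5071, 5382 and 5253 CPM in controls and 4753, 4634 and 4675 CPM in knockdown libraries, so that the knockdown mean was 89.5% of the control mean. In this sum every knockdown library lay below every control. The same held over all tested genes at 10 to 100 CPM, whose sums were 197800 to 206200 CPM in controls and 188900 to 192700 CPM in knockdown libraries. Over all tested genes at 10 CPM or more the groups overlapped (921500 to 1030000 and 937600 to 1004000 CPM). The small subunit stood at 1649.5, 1754 and 1672 CPM against 1479.8, 1430.0 and 1439 CPM (85.7% of control), and the large subunit at 3409, 3616 and 3569 CPM against 3263, 3191 and 3223 CPM (91.4% of control). The ratio of large- to small-subunit CPM was 2.07, 2.06 and 2.14 in controls and 2.21, 2.23 and 2.24 in knockdown libraries. These sums are descriptions of the libraries without a test.

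Other genes of mitochondrial translation were read from lists beside the family. For comparison, 17% of all tested genes were lower and 15.8% higher, and at 10 to 100 CPM 27.7% and 17%. Of 5 ribosomal proteins with no MRP symbol, PTCD3 (-0.38 ± 0.13) and CHCHD1 (-0.32 ± 0.08) fell, and the median was -0.32. Of 26 genes for assembly of the mitochondrial ribosome and modification of its RNA, a fall was called in 12 (46.2%) and a rise in 1 (median -0.33). MRM1, a 2'-O-methyltransferase of the large mitochondrial ribosomal RNA, changed by -0.81 ± 0.14, from 19.8, 25.8 and 23.0 CPM in controls to 15.6, 10.8 and 12.6 CPM. Its relative MRM3 changed by -0.68 ± 0.11, and TFB1M, which dimethylates the small ribosomal RNA, by -0.77 ± 0.13. The third enzyme of that kind, MRM2, also fell (-0.52 ± 0.10; named after its values were seen). The gene of this list that rose was YBEY, an endoribonuclease (0.45 ± 0.12), named for that reason.

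Of 16 mitochondrial translation factors 4 fell (25%) and none rose (median -0.16). Over all tested genes 17% were lower, and at 10 to 100 CPM 27.7%. The 4 were the elongation factors TSFM (-0.59 ± 0.09) and TUFM (-0.46 ± 0.09), the release factor gene listed as C12orf65 (-0.42 ± 0.11), and TACO1 (-0.32 ± 0.08). Of 5 genes for transcription of the mitochondrial genome, the polymerase POLRMT (-0.59 ± 0.15) and TFB2M (-0.38 ± 0.12) fell. Where RNAs that the organelle itself encodes were called, they were higher. MT-RNR1, the small mitochondrial ribosomal RNA, rose from 2250.4, 2948 and 2555 CPM to 3843, 4537 and 3419 CPM (0.61 ± 0.13), and MT-RNR2, the large, from 10173, 11804 and 11144 CPM to 17146, 20925 and 17229 CPM (0.74 ± 0.11). Of the 13 mitochondrial messenger RNAs only MT-ND3 was called, and it rose (0.53 ± 0.11), while the group median was 0.18. The deposited counts carry the label mRNA-seq, but the sources used here do not give whether some RNAs were selected or removed before library preparation.

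Genes with symbols of cytosolic ribosomal proteins were counted in the same way. This list was made by symbol and also takes in like-named paralogues such as RPL7L1. Of 83 tested of 84 listed, 3 fell (RPL7L1, RPS9 and RPL3) and 16 rose, with a median of 0.08. Over all tested genes 17% were lower and 15.8% higher, and at 100 CPM or more 27.8% and 13.6%. No test compared the families with each other.

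**Figure D5:**
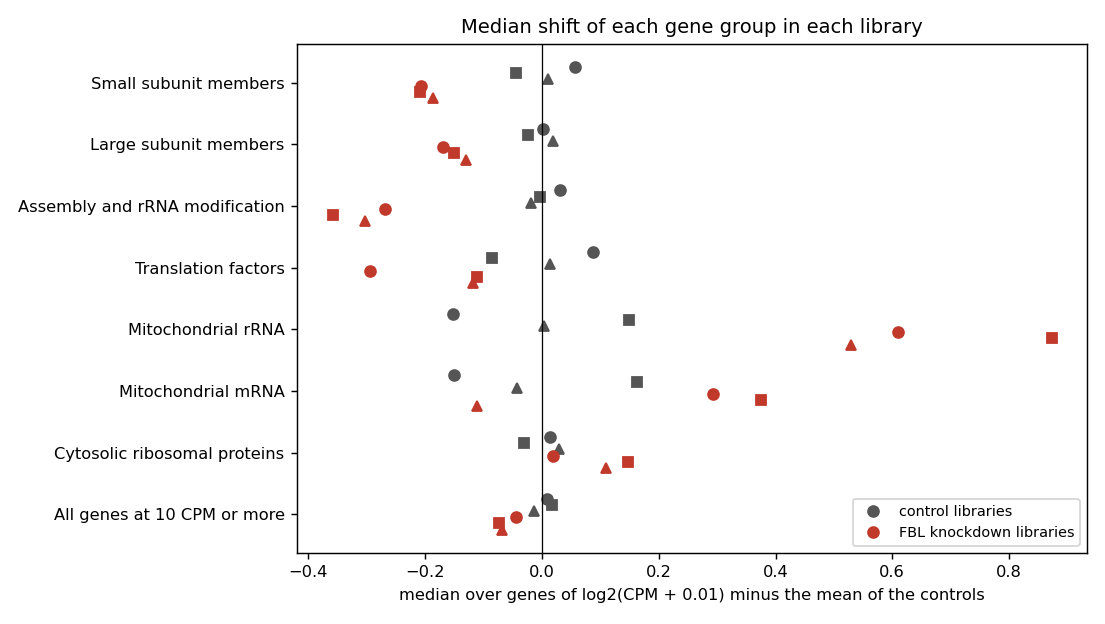
Median over genes (x axis) of log2(CPM + 0.01) minus the mean of the controls, for 8 gene groups in each control (grey) and FBL knockdown (red) library, with replicates 1, 2 and 3 as circle, square and triangle. Small- and large-subunit members lie below all controls in each knockdown library, mitochondrial ribosomal RNA lies above, and mitochondrial messenger RNA overlaps because knockdown replicate 3 lies among the controls.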

How the data were processed

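RNA of 3 control and 3 FBL knockdown libraries was examined. Per the submitters' processing notes, reads were handled with cutadapt 1.18, HISAT2, featureCounts and edgeR on GRCh38; the sources used here give no other version, strand setting or treatment of shared reads. The deposited table of read counts per gene, not normalized, was the basis of every test. The RPKM values deposited by the authors were used for levels per length and matched RPKM recomputed from the counts with TMM scaling for all 191796 values, within a relative difference of 1e-06. The deposited gene length equalled the exon bases of GENCODE release 29 for 77 of 78 members.

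Counts were fitted across all genes with edgeR 4.0.16 in R 4.3.3 (filterByExpr with a minimum count of 10 and total of 15, TMM scaling, quasi-likelihood test without the legacy option, Benjamini-Hochberg adjustment, threshold 0.05), with no covariate. CPM are counts scaled to the TMM-normalised library size. Alternatives used other scalings and filters, DESeq2 1.42.0, limma 3.58.1 on log2(RPKM + 1) and log2(RPKM + 0.1), a replicate block, each library left out, and, added after seeing the data, a GC correction and the omission of control replicate 2 and knockdown replicate 1. Counts were also simulated for this comparison over 18257 genes, with 100 genes changed 1.5-fold and 100 changed 2-fold. Of these, 60% and 99% were recovered, with 9.66% of calls false. That false share lay above the rate that the threshold of 0.05 sets. The false share among the calls in the real data was not measured.

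Members named with a value in every library were the 8 called members at 10 CPM or more with the largest change, the 4 with the highest log2 fold change, the 3 highest and 3 lowest by RPKM, and the 2 nearest the threshold on each side. Further members were named by role, up to 4 each among those called, or the 1 with the smallest p where none was, and up to 3 of each other list. Members and lists were chosen with earlier results of these data known. No library was a copy of another: chi-square per degree of freedom between replicates was 37.2 or more.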

Additional observations from a re-analysis of the deposited data

How the results depend on the processing

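Over 17 alternatives, 11 of the 26 lower calls were kept in all, 6 were lost in 1 to 3 and 9 in more than 3. Members called lower numbered 17 under upper-quartile scaling and 14 with the replicate block, and 11 to 30 when each library was left out in turn (16 without control replicate 3, 17 without knockdown replicate 2, 11 without knockdown replicate 3). Higher calls numbered 4 under upper-quartile scaling, 3 under the stricter filter, and 0 with library size only, without a filter and with the replicate block, 0 to 2 when a library was left out, and 5 each with the GC correction and without control replicate 2 and knockdown replicate 1. Over all genes, 3833 were called with the replicate block, and 3923 to 6943 when a library was left out. Deviations of same-numbered libraries correlated at -0.46, -0.38 and 0.13, and those of control replicate 2 and knockdown replicate 1 at 0.515. Those 2 libraries were also the ones with relatively more reads of GC-rich transcripts. The correlations therefore cannot show whether same-numbered libraries were paired. Small-subunit lower calls were 5 with the block and 4 to 10 with a library left out; large-subunit lower calls were 11 under upper-quartile scaling, 9 with the block, 26 with the GC correction and 7 to 20 with a library left out. The members' median was -0.12 under upper-quartile scaling, -0.13 under the stricter filter (71 members tested), -0.16 on log2(RPKM + 1) and -0.16 to -0.21 with a library left out. For the small subunit it was -0.16, -0.10, -0.17, -0.20 with the GC correction and -0.19 to -0.22 with a library left out. For the large subunit it was -0.12 under upper-quartile scaling, -0.14 under the stricter filter, -0.16 without control replicate 2 and knockdown replicate 1, and -0.15 to -0.22 with a library left out. The sign changed for MRPL38 (-0.081 without control replicate 3, and -0.081 to 0.56 over the libraries left out), MRPL53 (0.046 without knockdown replicate 2), MRPL54 (0.013 without control replicate 2, and -0.23 to 0.013 over the libraries left out) and MRPS36 (0.015 under upper-quartile scaling, 0.049 without knockdown replicate 1, 0.080 without control replicate 2 and knockdown replicate 1), none of them called in the main test. The cause of these changes was not tested. In simulated counts 60% of 1.5-fold changes were recovered. Only 100 genes were changed at each fold there, while 6061 genes were called here. The adjusted threshold therefore differed, and the 60% does not measure recovery in these data. Of the 26 called falls, 22 were smaller than 1.5-fold.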
